A study of Mus musculus with 11 samples.

Results

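Immediate early response genes are genes whose transcripts appear quickly after a cell is stimulated, without new protein synthesis. RNA of 10 of them, Egr1, Fos, Fosb, Jun, Junb, Ier2, Ier3, Atf3, Nr4a1 and Dusp1, was followed through the distal colon of 11 mice. These are 10 of the 22243 genes of the deposited table. They were chosen by symbol, as known genes of this class, but with their levels by mouse and by cage in these same data already in view. The differences between mice and between cages are therefore given as descriptions, and no p-value is given for them. The mice were 5 homozygous for a knockout of Nrg4 (labelled Nrg4-/-, here KO) and 6 wild-type (WT) animals. The product of Nrg4, neuregulin-4, binds and activates ErbB4, a receptor tyrosine kinase. The genotypes were housed together from 9 weeks of age and dissected at 11 to 12 weeks. Cage A held 2 KO and 2 WT mice, cage B 2 KO and 2 WT mice, and cage C 1 KO mouse and 2 WT mice. Both sexes were used, and the labels give no sex for a mouse. Each mouse is named by genotype and number (KO-8, WT-5).

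In a stimulated cell, the GTPase Ras activates the ERK kinases, and ERK and p38 phosphorylate transcription factors that already sit on the promoters of these genes, and cyclic AMP or calcium signals act through CREB. The products are mostly transcription factors, among them the FOS and JUN proteins that pair to form AP-1, together with phosphatases and RNA-binding proteins that end the signal. In the gut, growth factors and injury are known to induce them.

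Full-thickness tissue was used, so epithelium, muscle and nerves were measured together, and fewer cells of a type cannot be told apart from less RNA per cell. Markers of epithelium, smooth muscle, fibroblasts, and enteric neurons and glia were present in all 11 mice. Nrg4 itself was listed at 0 in every mouse, in both genotypes, and so gives no check of the knockout. The number of genes at 1 TPM or more ranged from 10221 to 10822 over the mice. TPM is a transcript abundance scaled for transcript length and for the library total. It keeps no sequencing depth, so no counting interval can be given. In the authors' deposited table, the exponent of the mean natural log of the estimated count was 4.99 for Fosb and 180 for the main Egr1 transcript. It was 838 for Fos and 1050 for Junb, so the Fosb values rest on the fewest reads.

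None of the 10 genes separated KO from WT mice. Most were highest in the same 2 mice of cage A, 1 of each genotype. Summed over the 10 genes, the level was 425 TPM in KO-8 and 222 TPM in its KO cage mate KO-1. It was 1030 TPM in WT-5 and 270 TPM in its WT cage mate WT-7, and between 161 and 296 TPM in the 7 mice of cages B and C. WT-5 was the highest mouse for 8 of the 10 genes, and KO-8 was the second highest for 7. Over the 9 genes that passed the filter on low values (at least 1 TPM in at least 5 mice), 7 had WT-5 highest and KO-8 second. Among all 10756 genes that passed it, 601 (5.59%) had that order. WT-5 was the highest mouse for 14.7% of these genes and KO-8 for 12.3%, the 2 largest shares among the 11 mice.

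Egr1, a zinc-finger transcription factor, varied most. Its level was 4.04, 7.30, 3.68, 75 and 3.31 TPM in KO-1, KO-3, KO-4, KO-8 and KO-9. In WT-2, WT-5, WT-6, WT-7, WT-10 and WT-11 it was 1.85, 354, 5.71, 3.75, 0.852 and 1.38 TPM. KO-8 and WT-5 thus stood far above the other 9 mice, none of which exceeded 7.30 TPM, and the genotypes overlapped. The highest level was 415 times the lowest. The range over mice, as the log2 of the highest over the lowest value of TPM + 0.5, was 8.03, the widest of the 10756 genes, against a median of 0.88 over all of them and 2.89 over the 9 immediate early genes. The gene lies on the plus strand at chr18:34859823-34864984 (GENCODE M21, GRCm38), and 97.7% of its TPM came from the 3-exon transcript ENSMUST00000165033.

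**Figure D1:**
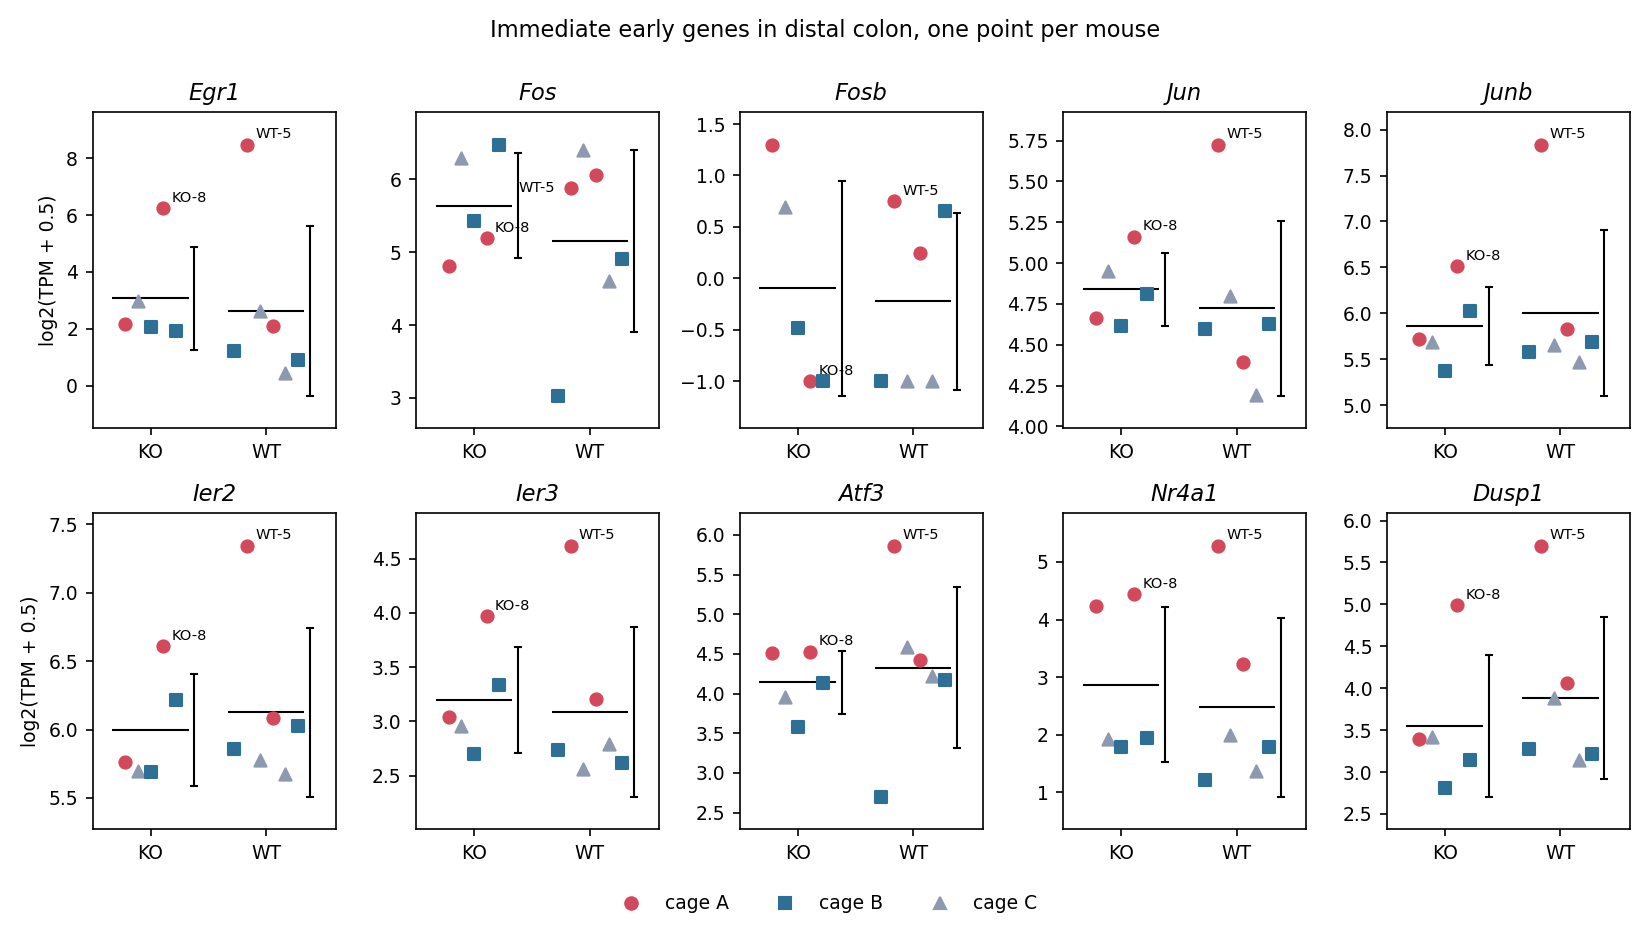
Level of each gene as log2(TPM + 0.5), with 1 point per mouse, KO mice left of WT mice in each panel, and colour and shape giving the cage. Horizontal lines are group means and bars their SD. WT-5 and KO-8, both of cage A, stand above the other mice for Egr1, Junb, Ier2, Ier3 and Dusp1, while Fos does not follow them and Nr4a1 is high in all 4 mice of cage A.

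Nr4a1, an orphan nuclear receptor also called NUR77, had another pattern. It had 18.3, 3.28, 2.97, 21.2 and 3.34 TPM in KO-1, KO-3, KO-4, KO-8 and KO-9, and 1.81, 38.4, 3.47, 8.88, 2.08 and 2.94 TPM in WT-2, WT-5, WT-6, WT-7, WT-10 and WT-11. All 4 mice of cage A, at 8.88 TPM or more, lay above all 7 mice of cages B and C, at 3.47 TPM or less. Nr4a1 was the one gene of the 9 with this separation, which 256 of the 10756 genes (2.38%) showed. The mean of cage A was 2.58 log2 units above that of cages B and C, and still 2.02 without WT-5 and KO-8. The gene lies on the plus strand at chr15:101254269-101274795, and 97.9% of its TPM came from the 7-exon transcript that starts within that span.

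Fos, the partner of JUN in AP-1, followed neither pattern. Its level was 27.5, 78.2, 42.6, 36.0 and 88.5 TPM in KO-1, KO-3, KO-4, KO-8 and KO-9. The WT mice WT-2, WT-5, WT-6, WT-7, WT-10 and WT-11 had 7.68, 58.7, 84.2, 66.4, 23.9 and 29.5 TPM. The highest 3 mice, KO-9, WT-6 and KO-3, came from cages B and C, and the lowest, WT-2, from cage B. WT-5 and KO-8 lay in the middle, at 1.38 and 0.847 times the median of cages B and C. The 11.5-fold range of Fos was wide, with rank 355 of 10756 genes, but it was spread over mice of all cages. Fos has 4 exons on the plus strand at chr12:85473890-85477273.

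Among the other AP-1 genes, Junb and Jun were highest in WT-5 and second highest in KO-8. Junb had 52.2, 51.0, 40.8, 90.6 and 64.4 TPM in KO-1, KO-3, KO-4, KO-8 and KO-9, while the WT mice ranged from 43.7 to 228 TPM with a median of 50.5. Its KO range overlapped its WT range but began lower, with the lowest mouse being KO-4 at 40.8 TPM. Jun had 24.8, 30.4, 24, 35.3 and 27.6 TPM in the same KO mice, and 17.8 to 52.4 TPM with a median of 24 in WT mice. Jun had the narrowest range of the 9 genes, 2.94-fold. Each is a gene of 1 exon on the minus strand, Jun at chr4:95049034-95052222 and Junb within chr8:84974484-84978718.

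Atf3, a basic leucine-zipper factor induced by stress, was high in WT-5 alone. It had 22.3, 15.1, 11.5, 22.6 and 17.1 TPM in KO-1, KO-3, KO-4, KO-8 and KO-9, and 6.01 to 57.8 TPM with a median of 19.5 in WT mice. KO-8 equalled its cage mate KO-1, with a ratio of 1.01, and lay below WT-6 at 23.5 TPM. A pair of principal transcripts with different first exons shares the gene, chr1:191170296-191218039 on the minus strand. The transcript from the upstream start, ENSMUST00000195117, held 58.2% of the TPM over all mice, and had 14.0 TPM in KO-8 and 39.4 TPM in WT-5. ENSMUST00000027941, from the start inside the gene, had 8.56 TPM in KO-8 and 18.4 TPM in WT-5. Both transcripts were thus highest in WT-5.

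Fosb, which makes another FOS protein, was near the floor of the table. It had 1.96, 1.12, 0.215, 0 and 0 TPM in KO-1, KO-3, KO-4, KO-8 and KO-9. In WT mice it was listed at 0 in 3 and had 1.18, 0.685 and 1.07 TPM in WT-5, WT-7 and WT-11. It did not pass the filter and was not tested, and KO-8, second highest for 7 of the genes, was listed at 0.

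Ier2 and Ier3, short immediate early genes that encode a nuclear protein and a regulator of cell survival, tracked Junb closely. Ier2 had 53.7, 51.3, 51.1, 97.3 and 73.9 TPM in KO-1, KO-3, KO-4, KO-8 and KO-9, and 50.6 to 162 TPM with a median of 61.0 in WT mice. Ier3 had 7.71, 7.25, 5.98, 15.2 and 9.62 TPM in the same KO mice, and 5.4 to 24.1 TPM with a median of 6.30 in WT mice. For both, and for Junb, the third highest mouse was KO-9 of cage B. The genotypes overlapped for both genes.

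Dusp1, a dual-specificity phosphatase that removes phosphate from p38, JNK and ERK, had 10, 10.2, 6.51, 31.4 and 8.32 TPM in KO-1, KO-3, KO-4, KO-8 and KO-9. WT mice ranged from 8.35 to 51.5 TPM with a median of 11.7. KO-8 was 3.13 times KO-1, and WT-5 was 3.17 times WT-7. These ratios lay closer together than those of any other of the 9 genes. Dusp1 lies on the minus strand, and its 4-exon transcript spans chr17:26505590-26508519.

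Promoters of 3 genes are printed, those with the most matches of the serum response element (CArG box) and the cyclic AMP response element. The marked matches thus follow from the choice and are no result about these genes. The levels of the 3 genes had 3 different patterns. Nr4a1 was high in the whole of cage A, Dusp1 in KO-8 and WT-5, and Fos in neither set. The sequences are RefSeq's, on GRCm38.p6, 5′ to 3′ on the strand of the gene, and end just before the start of transcription (for Dusp1 48 bases before it, by RefSeq's start). Nr4a1 covers chr15:101266596-101266845 on the plus strand, Fos chr12:85473640-85473889 on the plus strand, and Dusp1 chr17:26508520-26508722 on the minus strand. Capitals mark TGACG on either strand, which reads CGTCA where it lies on the other strand, and the full palindrome TGACGTCA, which contains both. These letters are the short and full forms of the cyclic AMP response element to which CREB and ATF proteins bind.
Dusp1: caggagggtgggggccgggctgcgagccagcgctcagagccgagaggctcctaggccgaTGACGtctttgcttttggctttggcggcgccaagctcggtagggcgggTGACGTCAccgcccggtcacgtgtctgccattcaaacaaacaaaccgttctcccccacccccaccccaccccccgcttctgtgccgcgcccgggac
Nr4a1: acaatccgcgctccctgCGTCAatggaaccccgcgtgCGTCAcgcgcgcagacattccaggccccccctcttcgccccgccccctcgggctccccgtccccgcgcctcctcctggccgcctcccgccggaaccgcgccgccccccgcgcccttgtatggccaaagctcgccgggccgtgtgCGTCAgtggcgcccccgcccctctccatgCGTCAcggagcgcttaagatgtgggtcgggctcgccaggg
Fos: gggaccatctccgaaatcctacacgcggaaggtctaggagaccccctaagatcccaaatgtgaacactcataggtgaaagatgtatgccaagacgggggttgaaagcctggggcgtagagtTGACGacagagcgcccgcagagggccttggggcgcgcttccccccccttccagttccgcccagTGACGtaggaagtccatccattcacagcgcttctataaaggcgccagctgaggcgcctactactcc

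In the 250 bases before RefSeq's start, TGACG occurred in 6 of the 8 genes with a promoter in the RefSeq table. These were Fos, Fosb, Junb, Atf3, Nr4a1 and Dusp1, and not Jun or Ier3. The 1 match of Atf3, at -7 to -3, lies within ENSMUST00000027941, which GENCODE starts further upstream, at chr1:191183340. It is thus not before that start, and the upstream start of ENSMUST00000195117 was not searched. Over all 32851 promoters in that table, 17.8% held it. Nr4a1 had 4 matches, all on the strand opposite to the gene, and Fos had 2. The full TGACGTCA was found in Dusp1 alone, at -143 to -136, and in 1.55% of all promoters. The serum response element (the CArG box), to which SRF binds, was found in 0 of the 8 windows and in 1.47% of all promoters. Sequence more than 250 bases upstream was not searched, and Egr1 and Ier2 were not among the 8 genes. A count of 0 therefore does not show that the genes lack an element. The AP-1 motif TGANTCA was found in 0 of the 8 and in 6.75%, and the EGR motif GCGTGGGCG in 0 and in 0.536%. The ETS motif CCGGAA was found in Nr4a1 and in 12% of all promoters. All motifs were searched on both strands, and a match is a run of letters in the window and not a measured site of binding.

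Set against their own cage mates of the same genotype, the 2 high mice gave an order of the genes. The ratio of KO-8 to KO-1 was 18.6 for Egr1, 3.13 for Dusp1, 1.97 for Ier3, 1.81 for Ier2, 1.74 for Junb and 1.42 for Jun. It was 1.31 for Fos, 1.16 for Nr4a1 and 1.01 for Atf3. The ratio of WT-5 to WT-7 was 94.4 for Egr1, 4.32 for Nr4a1, 4.06 for Junb, 3.17 for Dusp1, 2.77 for Atf3, 2.75 for Ier3, 2.55 for Jun, 2.41 for Ier2 and 0.884 for Fos. Egr1 came first in both pairs, and Fos was the one gene with a ratio below 1 in either. Each ratio compares 2 mice and has no replicate check. Between 2.75 and 2.77, as for Ier3 and Atf3, the order cannot be read.

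**Figure D2:**
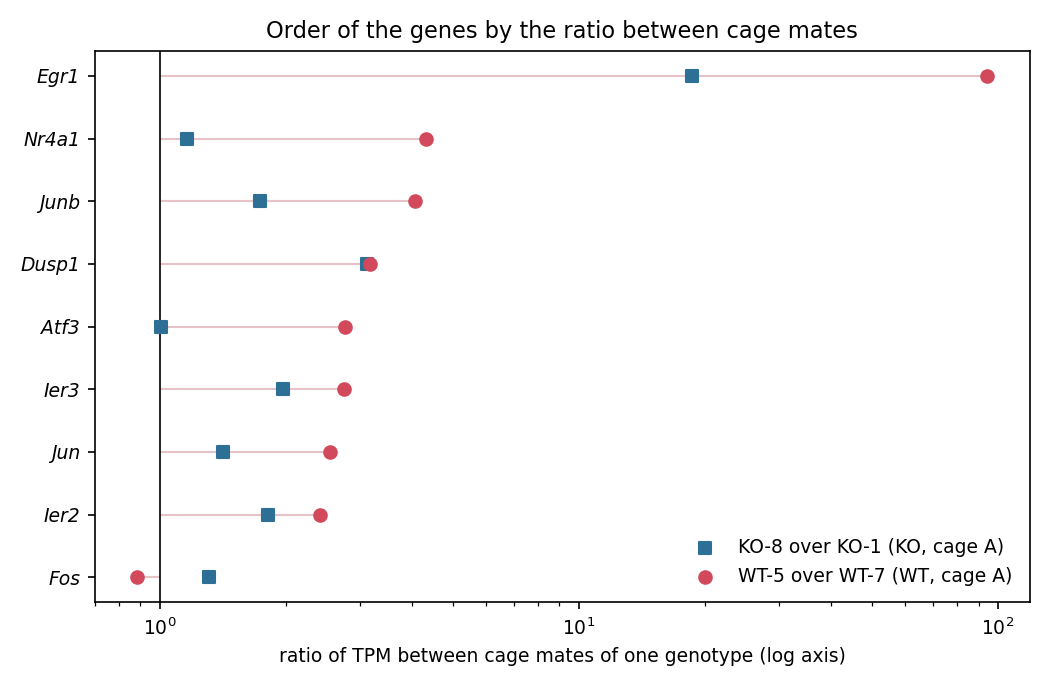
Ratio of TPM between cage mates of one genotype in cage A, on a log axis, for the 9 genes that passed the filter, ordered by the WT pair. Squares are KO-8 over KO-1 and circles WT-5 over WT-7. Egr1 lies at 18.6 and 94.4, the other genes lie below 5, and Fos lies at 1.31 and 0.884.

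Between genotypes, no immediate early gene passed the test, and the estimates were split in sign. KO against WT was tested in all 10756 genes with limma, cage being a term of the fit, and p-values were adjusted by Benjamini-Hochberg over all of them to a false discovery rate (FDR) of 0.05. Of the 9 immediate early genes tested, 0 passed, and 0 had an unadjusted p below 0.05. Of all genes, 4 passed (0.0372%) and 333 (3.1%) had an unadjusted p below 0.05. No immediate early gene had every KO mouse on one side of every WT mouse, a separation found in 24 of the 10756 genes (0.223%). The log2 difference, KO minus WT on the log2(TPM + 0.5) scale, was above 0 for 5 genes and below 0 for 4, with a median of 0.04 against -0.01 over all genes.

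The intervals show how little the fit could resolve for the genes that varied most. For Egr1 the difference was 0.30 ± 1.13 (SE; 95% interval -2.22 to 2.83; limma FDR 1.00), with 18.7 ± 31.5 TPM in KO mice and 61.2 ± 143 TPM in WT mice (SD, n = 5 and 6). For Fos it was 0.58 ± 0.56 (-0.68 to 1.83), with 54.6 ± 27.1 TPM in KO mice and 45.0 ± 29.2 TPM in WT mice. Nr4a1 differed by 0.23 ± 0.32 (-0.48 to 0.94) and Dusp1 by -0.38 ± 0.35 (-1.16 to 0.39). The narrowest intervals were those of Jun, at 0.10 ± 0.23 (-0.42 to 0.62), and Ier2, at -0.20 ± 0.24 (-0.74 to 0.34). The difference was -0.21 ± 0.34 for Junb, 0.04 ± 0.28 for Ier3 and -0.18 ± 0.34 for Atf3. All of these had an FDR of 1.00. In the authors' deposited table, the q-value was 1 for each of the 12 transcripts of these genes that have one, and the lowest p-value was 0.219. The log2 ratio in the authors' deposited table was -1.69 and -1.71 for the transcripts of Egr1 and -0.04 for Ier3, opposite in sign to the limma differences of 0.30 and 0.04. The mean TPM of Egr1 was likewise lower in KO mice, while the limma difference is one of mean log2 values.

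**Figure D3:**
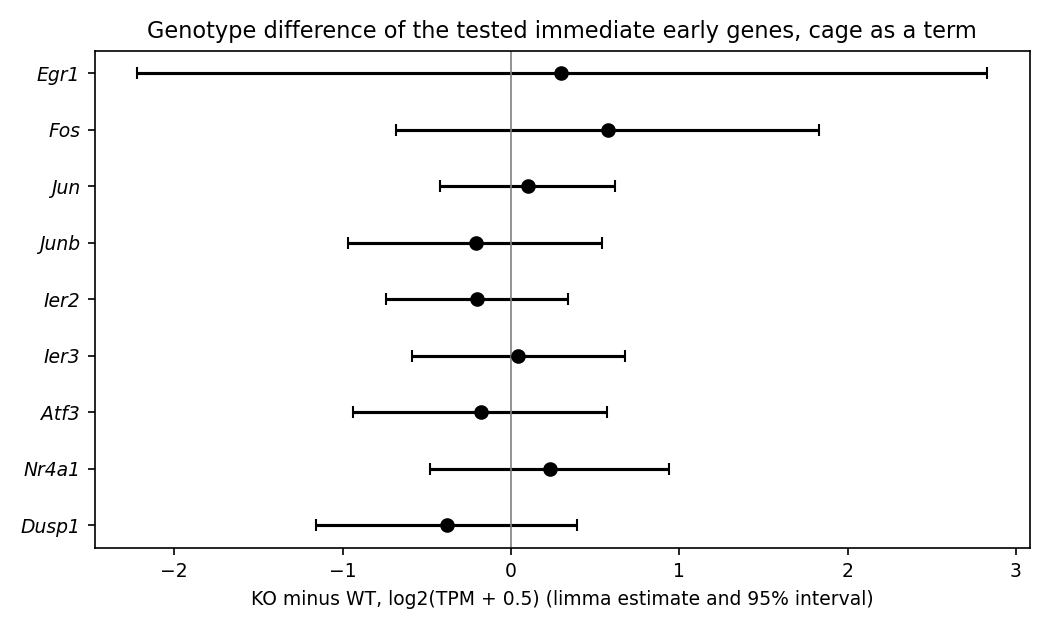
Estimated difference KO minus WT on the log2(TPM + 0.5) scale for the 9 genes tested, with its 95% interval from limma with cage as a term. Every interval covers 0, from -2.22 to 2.83 for Egr1 to -0.42 to 0.62 for Jun.

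Whether the genotype difference depended on cage was asked with an interaction term, the difference in cage A minus that in cages B and C. Its estimate was below 0 for 9 of 9 genes and passed the limma test for 0 of them. How many of all genes had an estimate below 0 was not counted, so the 9 of 9 cannot be called particular to these genes. Of all 10756 genes, 0 (0%) passed and 311 (2.89%) had an unadjusted p below 0.05. The 9 immediate early genes were chosen with their levels by cage in view, so their single estimates are descriptions without a p-value. Fos had the estimate furthest below 0, at -2.48 ± 0.91 (SE). Its KO mice had 0.98 log2 units less than WT mice in cage A (log2 difference -0.98), and more in cage B (1.98) and cage C (0.79). With cage A left out, the KO minus WT difference of Fos was 1.51 and that of Egr1 was 1.13, with limma FDR of 0.767 and 0.77. In cages B and C, Egr1 had 7.30, 3.68 and 3.31 TPM in KO-3, KO-4 and KO-9, against 1.85, 5.71, 0.852 and 1.38 TPM in WT-2, WT-6, WT-10 and WT-11. The 9 estimates share the same mice, and WT-5 is one of the 4 mice behind each value of cage A.

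The cage means, as a description, were higher in cage A for 9 of the 9 genes. Cage A minus cages B and C was 3.0 log2 units for Egr1, 2.58 for Nr4a1, 1.27 for Dusp1, 0.92 for Atf3, 0.90 for Ier3, 0.84 for Junb, 0.60 for Ier2, 0.33 for Jun and 0.18 for Fos. The median was 0.90, against 0.03 over all tested genes. Without WT-5 and KO-8 the difference was 0.39 for Egr1, 0.46 for Dusp1, 0.56 for Atf3, 0.31 for Ier3, 0.14 for Junb, 0.07 for Ier2, -0.13 for Jun and 0.13 for Fos, leaving Nr4a1 as the one gene above 1. Over all genes, limma's F test on cage called 0 of 10756 (0%), and 1303 (12.1%) had an unadjusted p below 0.05. RNA of 4 Y-linked genes summed to between 32.4 and 41.7 TPM in the mice of cage A and to at most 0.236 TPM in those of cages B and C, so cage A and Y-linked RNA cannot be told apart.

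Levels of cell type markers in the 2 high mice are set beside those of the others. Summed over the 12 smooth muscle markers in the table, the level was 4540 TPM in KO-8 and 6120 TPM in WT-5, and between 3170 and 5480 TPM in the other mice. Fibroblast and matrix markers (10 genes) summed to 170 TPM in KO-8 and 202 TPM in WT-5, with 102 to 183 TPM in the rest, and endothelial markers (10 genes) to 22.7 and 23.5 TPM against 6.91 to 19.9 TPM. WT-5 ranked first in these 3 lists. The 10 markers of absorptive colonocytes summed to 7210 TPM in KO-8 and to 6710 TPM, the lowest of the mice, in WT-5, with 6860 to 12600 TPM in the rest. Goblet cell markers (9 genes) were highest in KO-8, at 13000 TPM, and stood at 6430 TPM in WT-5, with 5520 to 12600 TPM in the rest. General epithelial markers (7 genes) were also highest in KO-8, at 8760 TPM, with 7510 TPM in WT-5 and 5390 to 7910 TPM in the rest. Enteric neuron and glia markers (12 genes) were highest in WT-5, at 104 TPM, with 82.3 TPM in KO-8 and 48.9 to 101 TPM in the rest. KO-8 thus lay within the range of the other mice for smooth muscle, fibroblast, colonocyte, and neuron and glia markers. It lay above it for endothelial, goblet cell and general epithelial markers. Both mice lay below the others for neutrophil and mast cell markers (7 genes), at 178 TPM in KO-8 and 170 TPM in WT-5 against 267 to 515 TPM. Ly6g made up most of that sum. Markers of interstitial cells of Cajal (3 genes) were also lowest in both, at 32.7 and 36.5 TPM against 36.6 to 52.2 TPM. Sums of the remaining lists are not given here. One colonocyte marker, Ceacam1, was listed at 0 in every mouse, and no marker of the other lists named here was. Mitochondrially encoded genes took 20.7% of the TPM in KO-8 and 24.7% in WT-5, within the range of 19.0% to 42.9% over the mice. The part of these markers in the levels of the immediate early genes was not tested.

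Correlations between the genes were computed with and without the same 2 mice. These mice were picked because most of these genes were highest in them. A lower r without them, and less change for pairs with Fos, therefore follow in part from that choice and are descriptions. Over 11 mice, the 36 pairs of the 9 genes had a median Pearson r of log2(TPM + 0.5) of 0.79, from 0.20 to 0.97. Over the 9 mice without WT-5 and KO-8 the median was 0.37, from -0.10 to 0.82. Junb stayed close to Ier2 (0.97 over 11 mice, 0.82 over 9) and to Ier3 (0.95 and 0.75), and Egr1 to Jun (0.93 and 0.74). Egr1 and Ier2 had 0.88 over 11 mice and -0.10 over 9. Pairs with Fos ran the other way, with a median of 0.24 over 11 mice and 0.40 over 9, led by Atf3 (0.56 and 0.66) and Egr1 (0.30 and 0.66). All values of a mouse come from 1 library, which all pairs share.

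**Figure D4:**
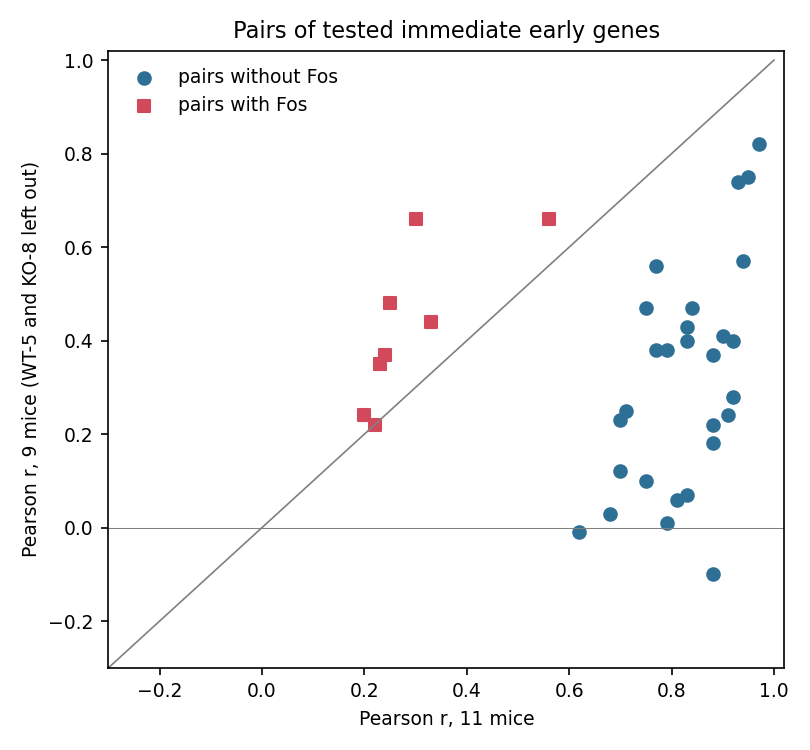
Pearson r of each pair of the 9 genes over the 9 mice without WT-5 and KO-8 (vertical axis) against r over all 11 mice (horizontal axis), with the line of equality. The 28 pairs without Fos lie below the line, with medians of 0.32 and 0.83, and 7 of the 8 pairs with Fos lie above it, with 1 on it at 0.22.

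The genes most like the group, ranked by r with the mean centred log2 level of the 9 genes over 11 mice, were Hbegf (0.98), Stip1 (0.95), Lrrc8a (0.93), Phlda1 (0.93), Cdh1 (0.93) and Prag1 (0.92). Hbegf encodes a ligand of the receptors EGFR and ErbB4, Phlda1 a protein of the pleckstrin homology-like family, Stip1 a co-chaperone of HSP70 and HSP90, and Cdh1 E-cadherin. Over the 9 mice without WT-5 and KO-8, Hbegf kept an r of 0.88 and Stip1 0.76, while Phlda1 had 0.42. Least like it were Stard5 (-0.95), Tsku (-0.95) and Tagap (-0.94). Tagap had 1.59 TPM in KO-8 and 1.37 TPM in WT-5, against 4.97 to 9.09 TPM in the other mice. For Nr4a1 and Fos alone, the likeness was computed after their values were seen. Closest to Nr4a1 were Itpk1 (0.98), Nacc1 (0.96) and Suox (0.95), and closest to Fos were Akap13 (0.94), Ankzf1 (0.84) and Ccdc191 (0.84). Akap13 had its lowest level, 1.16 TPM, in WT-2, the mouse with the lowest Fos.

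Other genes of the pathway were read from lists of its stages. Among them Hspa8 alone was called for genotype by limma, and none was called for cage. Of the ErbB receptors and ligands, 8 of 15 listed genes were tested and 0 passed for genotype. WT-5 was highest and KO-8 second for 3 (Areg, Egfr and Hbegf), against 5.59% of all genes. Areg, the EGFR ligand amphiregulin, had 110 TPM in KO-8 and 208 TPM in WT-5, against 9.63 to 27.7 TPM in the other 9 mice. Hbegf had 28.2 TPM in KO-8 and 74.5 TPM in WT-5, against 1.23 to 7.16 TPM. In both mice these ligands thus stood several-fold above the rest. Ereg, which encodes the ligand epiregulin, and Tgfa, which encodes TGF-alpha, had the smallest genotype p of the list, with log2 differences of 0.40 ± 0.22 and -0.25 ± 0.12 (limma FDR 1.00 each).

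For the kinases and adaptors between receptor and nucleus, this order was about as rare as over all genes. Of 25 listed genes of the Ras-ERK, JNK and p38 pathways, 24 were tested and 0 passed for genotype. WT-5 was highest and KO-8 second for 1 (Mapkapk2), against 5.59% of all genes. The 25 genes summed to 537 TPM in KO-8 and 511 TPM in WT-5, against 437 to 522 TPM in the rest. Hras, the gene of the small GTPase, had the smallest genotype p, with a log2 difference of -0.48 ± 0.11 (unadjusted p = 0.00167, limma FDR 1.00). It had 25.6 to 39.3 TPM in KO mice and 41.6 to 52.3 TPM in WT mice, with no overlap. Such a separation was found in 24 of the 10756 genes (0.223%), and Hras was picked as the smallest p of 24 tested genes. Of the transcription factors that bind these promoters, 12 of 18 were tested and 0 passed. The order held for 3 (Srf, Elk4 and Ets2), against 5.59% of all genes. Srf, which encodes the serum response factor, had 18.1 TPM in KO-8 and 24.7 TPM in WT-5, against 13.3 to 16.0 TPM in the others.

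**Figure D5:**
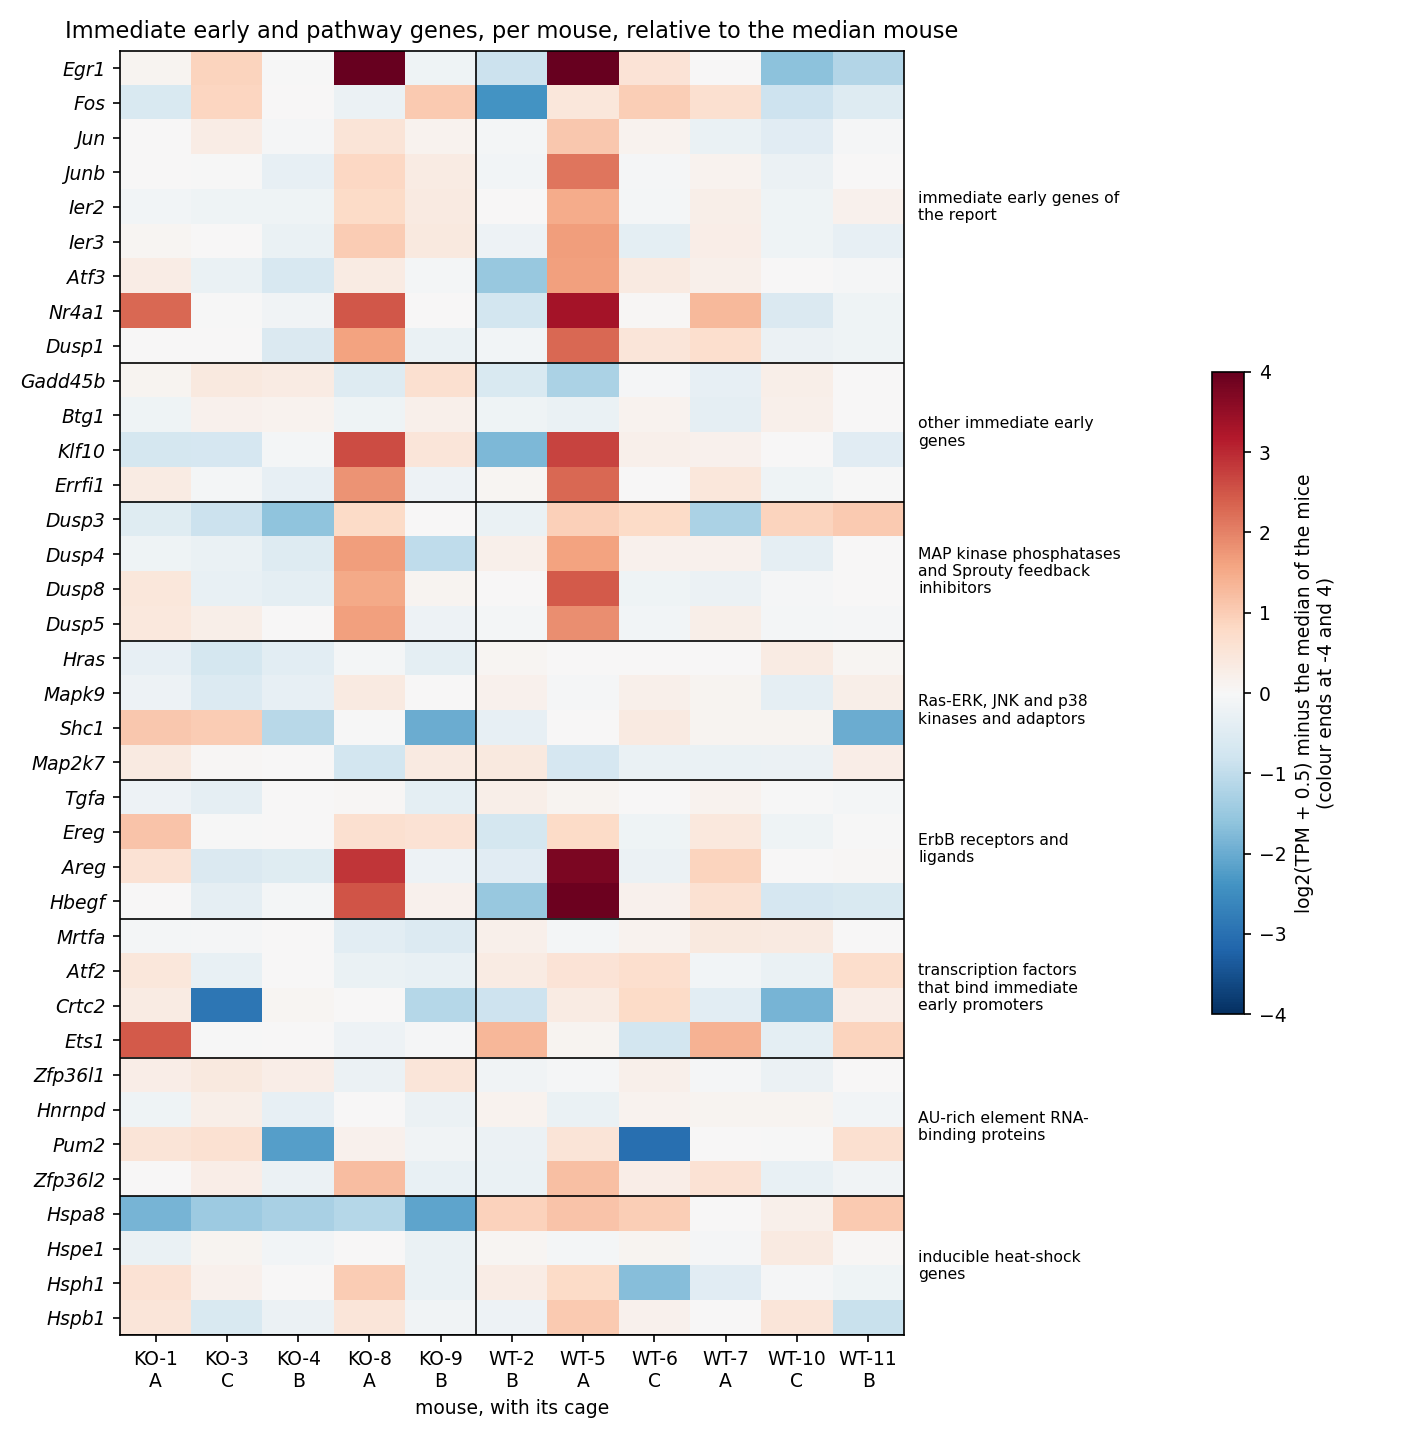
Level of the 9 immediate early genes and of the pathway genes named by rule, as log2(TPM + 0.5) minus the median of the 11 mice, with KO mice left of WT mice and the cage letter under each mouse. Areg, Hbegf, Klf10, Errfi1, Dusp4, Dusp5 and Dusp8 are high in the columns of KO-8 and WT-5. Of the kinases and adaptors, only Hras, Mapk9, Shc1 and Map2k7 are shown, and none of them is high in both columns.

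Downstream, other immediate early genes and the phosphatases that oppose the kinases included many with the same order. Of 46 other immediate early genes, 37 were tested, 0 passed for genotype (19 above 0 and 18 below), and 15 had WT-5 highest and KO-8 second, against 5.59% of all genes. Klf10, a TGF-beta inducible repressor, had 37.4 TPM in KO-8 and 40.1 TPM in WT-5, against 1.31 to 8.14 TPM in the others. Errfi1, a feedback inhibitor of EGFR, had 79.9 TPM in KO-8 and 113 TPM in WT-5, against 18 to 30.7 TPM. Fosl1, which encodes the FOS family protein FRA1 and was named after its values were seen, had 20.6 TPM in KO-8 and 24.6 TPM in WT-5, against 0.381 to 1.40 TPM. It did not pass the filter, since 3 mice reached 1 TPM. Gadd45b, a stress gene, went the other way, with 8.66 TPM in KO-8 and 4.96 TPM in WT-5 against 8.0 to 19.9 TPM, and had the smallest genotype p of the list (log2 difference 0.60 ± 0.21, unadjusted p = 0.0165, limma FDR 1.00). Egr2 was listed at 0 in every mouse.

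Of 16 MAP kinase phosphatases and Sprouty inhibitors, 13 were tested and 0 passed for genotype. The order held for 7 (Dusp5, Dusp6, Dusp8, Dusp10, Spry1, Spry2 and Spry4), against 5.59% of all genes. Dusp5, a nuclear ERK phosphatase, had 15.9 TPM in KO-8 and 18.6 TPM in WT-5, against 4.04 to 6.54 TPM. Dusp8, which acts on JNK and p38, had 5.51 and 11.2 TPM, against 1.12 to 2.40 TPM. Dusp4, also a nuclear phosphatase, was high in the same mice but highest in KO-8, with 8.56 TPM in KO-8 and 8.18 TPM in WT-5 against 0.903 to 2.76 TPM. Summed over the list, the level was 119 TPM in KO-8 and 148 TPM in WT-5, against 53.2 to 72.0 TPM in the other mice.

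Of the proteins that bind AU-rich elements and shorten the life of such transcripts, 10 of 10 were tested and 0 passed for genotype. The order held for 0 of them, against 5.59% of all genes. Zfp36l2, one of the decay factors, was nonetheless high in both mice, with 121 TPM in KO-8 and 120 TPM in WT-5 against 41.7 to 77.4 TPM. In the list of heat-shock genes, all 12 were tested and 5 (Dnajb1, Hspb1, Hsp90aa1, Bag3 and Hspa5) had the order, against 5.59% of all genes. Hspa1a and Hspa1b, also named after their values were seen, did not have it. Both were highest in KO-1, at 6.45 and 23.1 TPM. They had 4.87 and 13.1 TPM in KO-8, and 4.27 and 10.8 TPM in WT-5. Hsp90aa1, named after its values were seen, had 172 TPM in KO-8 and 212 TPM in WT-5 against 95.2 to 129 TPM. One heat-shock gene, Hspa8, fell in KO mice (log2 difference -2.29 ± 0.27, limma FDR 0.0218), with 32.4 to 63.7 TPM in KO mice and 142 to 316 TPM in WT mice. The call held in 4 of the 11 fits that leave out 1 mouse and was lost without KO-1, KO-3, KO-4, WT-2, WT-5, WT-6 or WT-11 (limma FDR 0.00582 to 0.128), with a log2 difference of -2.49 to -2.12 throughout. Hspa8 did not follow the order and had an r of 0.06 with the mean of the immediate early genes.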

How the data were processed

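Per the labels, polyadenylated RNA of full-thickness distal colon was made into stranded libraries and read as single-end reads of 75 nt. CASAVA, kallisto and sleuth are named with the mm10 build in the submitters' processing notes (no versions given in the sources used here). The authors deposited TPM per principal transcript and mouse, and, per the file headers, p-values and q-values, a likelihood-ratio score, a log2 ratio and a mean natural log of the estimated count. Of 29213 rows, 405 repeats were dropped, and TPM of the 28808 transcripts were summed to 22243 genes. Column sums were 558446 to 770986 TPM, and median-of-ratios factors between mice 0.978 to 1.04.

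The 10756 genes at 1 TPM or more in 5 or more mice were tested with limma 3.58.1 (R 4.3.3) on log2(TPM + 0.5) with a mean-variance trend, with cage and genotype as terms, a 2-term F test for cage, and in a second fit the interaction. The log2 scale with 0.5 added understates changes of low genes. Samples are mice. The labels give each mouse its own number, so samples were not paired. The immediate early genes and the lists were chosen with earlier results of these data known. Pathway genes named are, per list, the 2 with the smallest genotype p and the 2 with the largest cage A difference, and others are named after their values were seen. Genes most like the group were ranked over 10458 tested genes with a symbol of their own. Promoter letters are from RefSeq (GRCm38.p6), gene positions from GENCODE M21. Promoters of Egr1 and Ier2 and protein sequences were not used here. Alternatives were other pseudocounts, filters and scalings, no trend, no cage term, cage A left out, and each mouse left out.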

Additional observations from a re-analysis of the deposited data

Results flagged for a closer look

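Of 40 groups of 4 or more mice (each of the 10 genes in KO, WT, cage A and cage B), 13 had a highest mouse whose gap to the next, as a share of the group's range, was above Dixon's 95% critical value. For groups of normally distributed values, chosen without regard to them, about 1 in 20 would be above it at either end. For the highest mouse alone the share would be smaller. The gaps were taken on TPM and not on the log2 scale, so that share need not hold here. These genes were chosen with their levels by mouse in view, so the gaps are a description and no test of these mice. Among KO mice, KO-8 stood apart for Egr1 at 75 TPM, with the next mouse at 7.30 TPM, and for Dusp1 at 31.4 TPM, with the next at 10.2 TPM. Among WT mice, WT-5 stood apart for 8 genes. It had 354 TPM of Egr1 (next 5.71), 52.4 TPM of Jun (next 27.3), 228 TPM of Junb (next 56.2) and 162 TPM of Ier2 (next 67.2). WT-5 also had 24.1 TPM of Ier3 (next 8.75), 57.8 TPM of Atf3 (next 23.5), 38.4 TPM of Nr4a1 (next 8.88) and 51.5 TPM of Dusp1 (next 16.2). Within cage A, WT-5 stood apart for Atf3 alone, again with 57.8 TPM against 22.6 TPM in the next mouse, and within cage B KO-9 stood apart for Jun at 27.6 TPM (next 24.2) and for Ier3 at 9.62 TPM (next 6.18). Fos and Fosb had no such mouse. These groups share mice, so the 13 are not independent.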

How the results depend on the processing

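No immediate early gene passed for genotype in any of 187 alternative estimates (lowest limma FDR 0.678). Of these, 169 kept the sign of the KO minus WT difference and 18 reversed it. For Junb the log2 difference turned to 0.09 with cage A left out and 0.04 without WT-5 and KO-8 (an alternative added after seeing the data), and for Atf3 to 0.08 in each. Leaving out 1 mouse at a time gave -0.41 to 1.41 for Egr1, 0.11 (without WT-2) to 0.85 for Fos, -0.57 to -0.10 (without WT-5) for Dusp1, -0.06 to 0.32 for Jun, -0.43 to 0.15 for Junb, -0.33 to 0.03 for Ier2, -0.09 to 0.31 for Ier3, -0.48 to 0.09 for Atf3 and -0.04 to 0.54 for Nr4a1. The signs of Junb, Ier2 and Atf3 turned without WT-5. The cage A minus cages B and C difference of Fos ran from -0.20 to 0.41, and that of Jun was -0.13 without WT-5 and KO-8. Genes called for genotype (4) became 2 without a filter, 1 without cage A, 2 without WT-5 and KO-8, and 2 to 4 with 1 mouse left out. Genes called for cage (0) became 4 without a filter and 0 to 2 with 1 mouse left out. Genes called for the interaction (0) became 1 without WT-5 and KO-8 and 0 to 1 with 1 mouse left out. Immediate early genes with all of cage A above cages B and C (1, Nr4a1) became 0 under the filter of 5 TPM, which leaves out Nr4a1, and 1 to 3 with 1 mouse left out. Dusp1 was added without KO-1, Junb and Ier3 without KO-9, and Atf3 without WT-6. Of the 6 genes most like the group, 3 were named again with cage and genotype means removed and 0 without WT-5 and KO-8. Except for the filter on Nr4a1, the cause was not tested. TPM keeps no depth, and with 5 KO and 6 WT mice the intervals of Egr1 and Fos were wide. No paired analysis was possible because each mouse has its own number.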
